A study of Mus musculus with 32 samples.

Results

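This account describes 9 osteoblast genes in the jaws of mouse embryos at embryonic day 13.5: Sp7, Alpl, Spp1, Ibsp, Ifitm5, Phex, Panx3, Dmp1 and Mepe. They were chosen by name, as an osteoblast transcription factor and non-collagen genes of bone matrix and its mineralization, and were matched by the gene symbol in the platform annotation. Of the 9, 8 had a probe set, out of 18193 genes with one, and Spp1 had none paired with it in the annotation used here and is not analysed. A filter on low signal, which asked for a value above an array's percentile 40 on at least 4 arrays, kept 5 of the 8 (Sp7, Alpl, Ifitm5, Phex and Panx3) among 13705 genes tested.

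Osteoblasts of the jaws form from neural crest mesenchyme and in most of the facial skeleton make bone directly, without a cartilage model. The transcription factor Sp7, also called Osterix, is required for the step from progenitor to osteoblast. Alkaline phosphatase (Alpl) is an early product of these cells, and the acidic glycoproteins Ibsp, Dmp1, Mepe and Spp1 enter the matrix as it matures and mineralizes.

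The series holds 32 arrays in 8 groups of 4. The mutants were Wnt1cre;Alk5fl/fl embryos (Alk5 Knockout in the labels), which lack the TGF-beta type I receptor Alk5, gene symbol Tgfbr1, in cells that had expressed the Wnt1 promoter-driven Cre, among them the cranial neural crest. They were recognised by cleft palate and a calvarial defect. The controls were litter mates from the same cross of Wnt1cre;Alk5fl/+ with Alk5fl/fl mice, and their own alleles are not given, although every embryo of that cross carries at least 1 floxed Alk5 allele. All were labelled C57B6, and each mandible and maxilla was cut into a distal and a proximal end, so that a group is 1 genotype, jaw and end, with arrays numbered 1 to 4 in the labels. The deletion spares cells of other origin, such as muscle, endothelium and blood, and whole pieces of tissue were profiled, so fewer cells of a type and less RNA per cell cannot be told apart.

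Values are log2 expression from RMA, on which a difference of 1 is a 2-fold change, and levels are compared within a probe set and not between genes. The number of arrays limits the precision. Array medians lay between 7.35 and 7.49, and the lowest correlation of 2 arrays within a group was 0.926. Nothing states that the numbers are separate embryos, so a p-value speaks only to the variation among these arrays, which could be technical in part. Xist was high and the Y-linked genes low in control number 2 and mutant number 1, as in female tissue, and the reverse held in the other sets except on arrays of control number 3. There Xist, at most 6.96 in the other such sets, reached 10.72 on 1 array. On 1 of its probe sets the Y-linked gene Uty, 8.12 or higher in those sets, fell to 6.25 on another array. A different Uty probe set read 9.34 to 9.68 on the arrays of control number 3. A probe set each of the Y-linked Kdm5d (10.27 to 10.37) and Eif2s3y (10.03 to 10.61) showed no such fall. The probe set of Tgfbr1 read 12.65 to 12.71 in the means of the control groups and 12.87 to 13.07 in those of the mutant groups; its place relative to the deleted exon is not known here, and it checks no label.

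Arrays stood apart in 3 ways that touch the results. The arrays of number 1 read 13.68 to 13.97 for a Cre spike-in control, against 12.42 to 13.23 on the other 24 arrays, in both genotypes. In the maxilla, control number 2 and mutant number 4 had their ends turned against the other 6 sets: the differences between distal and proximal end over all tested genes correlated at 0.75 between these 2 sets, at -0.83 to -0.06 between either of them and the other 6, and at 0 to 0.74 among the other 6. The control distal mandible array of number 3, the one with the low Uty, had a 3′ minus 5′ difference of 2.23 between the Gapdh control probe sets, a sign of RNA quality, against -0.18 to 0.12 on the other 31 arrays. Results are given with and without number 1, and the maxilla results, apart from the comparison of its ends, also without the 4 turned arrays.

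In control number 1 Ibsp and Ifitm5 in 3 of the 4 regions, and Dmp1 in all 4, reached levels that no other set reached on the probe sets used. The promoters of Ibsp, Dmp1 and Ifitm5 are shown because these genes lay near the same level on all arrays outside control number 1. That of Mepe is shown because it lies beside Ibsp and Dmp1 and showed no such rise. Mepe was below the filter level on 32 of 32 arrays, so it may only have gone undetected. The choice is not by size of difference. Panx3 (4.90 to 12.06) and Phex (4.31 to 9.57) spanned wider ranges over the arrays than Dmp1 (4.30 to 9.07) and Ifitm5 (6.98 to 11.70). Dspp, Dmp1, Ibsp, Mepe and Spp1 follow each other as protein-coding genes in 1 cluster on chromosome 5, from the RefSeq gene table of assembly GRCm38.p6. The sequences are RefSeq's, build GRCm38.p6, and hold the 250 bases before the listed start of transcription, 5′ to 3′ on the strand of the gene; capitals mark a match to any motif searched. Dmp1 has 2 listed starts. The locations are chr5:104299037-104299286 (plus strand) for Ibsp, chr5:104197325-104197574 and chr5:104202367-104202616 (plus) for the first and second start of Dmp1, chr5:104325079-104325328 (plus) for Mepe and chr7:140950244-140950493 (minus) for Ifitm5.
Ibsp: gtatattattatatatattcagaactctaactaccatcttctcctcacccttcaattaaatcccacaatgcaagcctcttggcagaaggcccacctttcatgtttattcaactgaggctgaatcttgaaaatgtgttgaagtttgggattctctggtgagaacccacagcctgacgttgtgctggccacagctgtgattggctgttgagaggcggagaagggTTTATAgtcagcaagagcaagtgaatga
Dmp1, first start: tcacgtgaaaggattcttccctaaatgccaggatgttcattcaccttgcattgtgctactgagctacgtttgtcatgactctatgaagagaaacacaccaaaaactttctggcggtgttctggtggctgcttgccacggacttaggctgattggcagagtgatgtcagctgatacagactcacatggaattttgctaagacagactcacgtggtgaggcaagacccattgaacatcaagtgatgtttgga
Dmp1, second start: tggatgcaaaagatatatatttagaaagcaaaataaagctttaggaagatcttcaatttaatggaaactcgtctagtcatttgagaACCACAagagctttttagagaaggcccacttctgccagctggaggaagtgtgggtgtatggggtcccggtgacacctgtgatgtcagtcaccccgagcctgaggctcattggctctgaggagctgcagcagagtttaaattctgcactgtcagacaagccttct
Mepe: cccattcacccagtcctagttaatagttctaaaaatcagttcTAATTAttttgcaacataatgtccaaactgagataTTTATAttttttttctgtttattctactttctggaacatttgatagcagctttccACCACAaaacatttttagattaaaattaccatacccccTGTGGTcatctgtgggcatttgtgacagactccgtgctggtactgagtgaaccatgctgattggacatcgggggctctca
Ifitm5: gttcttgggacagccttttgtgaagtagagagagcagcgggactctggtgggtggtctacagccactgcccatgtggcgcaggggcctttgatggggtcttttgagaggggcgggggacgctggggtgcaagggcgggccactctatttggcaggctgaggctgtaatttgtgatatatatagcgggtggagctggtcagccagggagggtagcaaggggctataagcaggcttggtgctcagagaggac

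The motifs searched on both strands were TGTGGT, the core that Runx factors bind, TAATTA, a homeodomain core, TATAAA, the TATA box, and TGANTCA, the AP-1 site, and no match overlapped another. Among 32851 mouse promoters of the same length, 14% held TGTGGT, 4.84% TAATTA, 12.4% TATAAA and 6.75% TGANTCA. Ibsp held TATAAA in antisense, read as TTTATA, 28 bases before its start. The second start of Dmp1 held TGTGGT in antisense 164 bases upstream, and no motif was found before its first start or before Ifitm5. Mepe, which was below the filter level on every array, held the most matches, with TGTGGT at 118 bases (antisense) and 80 bases (sense), TAATTA at 208 and an antisense TATAAA at 173 bases upstream. The part of these motifs in the levels was not tested. Of the 8 genes measured, 6 had promoter entries, and Sp7 and Panx3 are named only.

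**Figure D1:**
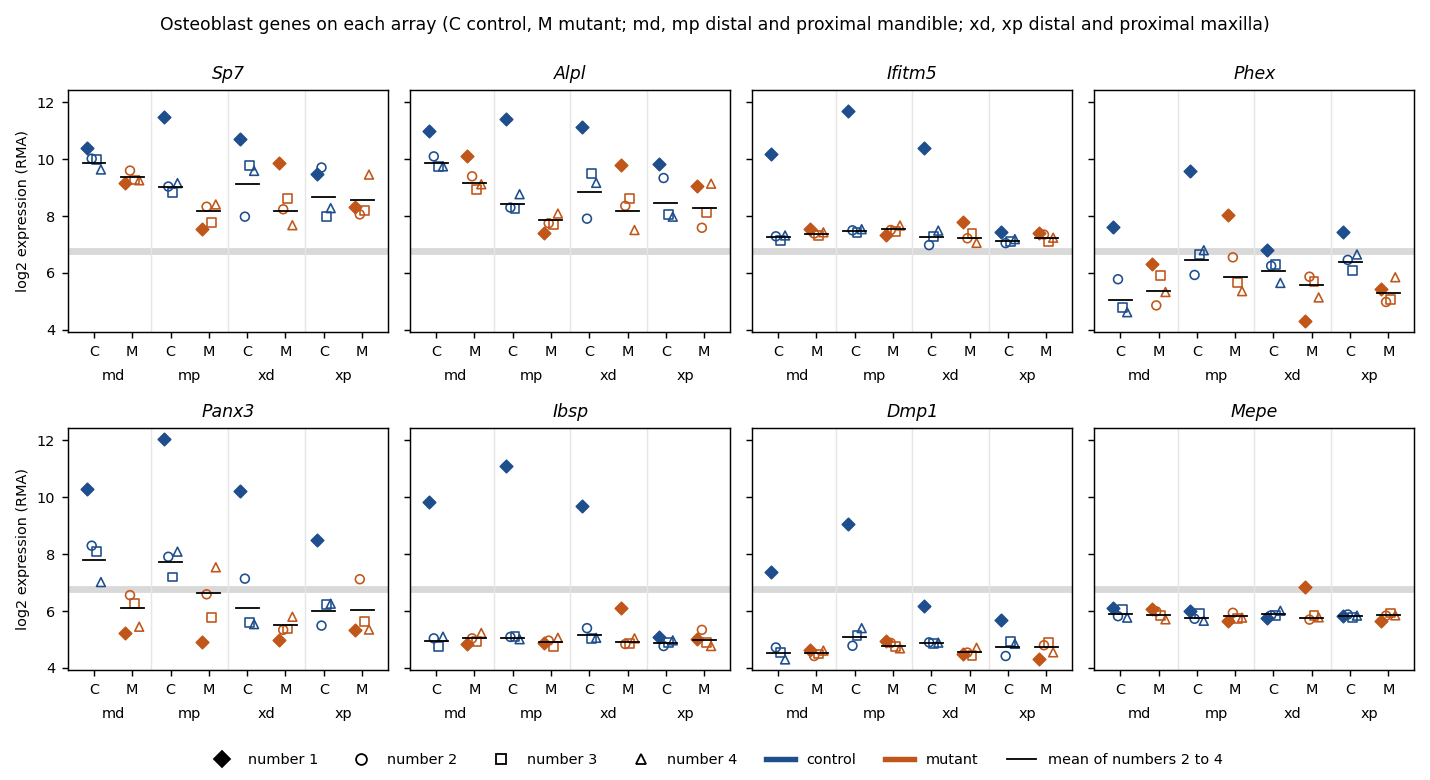
Log2 expression (vertical axis) of the 8 measured osteoblast genes on every array, 1 panel per gene and 1 column per group; blue is control, orange mutant, filled diamonds are number 1, open symbols numbers 2 to 4, black lines the mean of numbers 2 to 4, and the grey band the level of the low-signal filter (6.66 to 6.86). Ibsp, Ifitm5 and Dmp1 lie near the same level on all arrays but those of control number 1, whereas Sp7 and Alpl vary in every group.

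Ibsp encodes bone sialoprotein, an acidic matrix glycoprotein that binds hydroxyapatite and integrins. The probe set with its highest reading gave 12.97, 5.17, 4.85 and 6.25 on numbers 1 to 4 of control distal mandible. In control proximal mandible the values were 13.73, 4.04, 3.99 and 4.57, in control distal maxilla 12.73, 5.37, 4.07 and 4.36, and in control proximal maxilla 6.66, 4.09, 4.12 and 4.57. On the 16 mutant arrays Ibsp read 3.78 to 5.82, below the level of the filter. Thus 3 of the 32 arrays carried all Ibsp signal above that level, and each was a control array of number 1. Its other probe set, the one with the higher mean over all arrays, gave 9.84, 11.11 and 9.68 on those arrays and 4.74 to 6.10 on the 28 arrays outside control number 1.

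Ifitm5, or Bril, encodes a membrane protein of mineralizing osteoblasts. It read 10.17 in distal mandible, 11.70 in proximal mandible, 10.39 in distal maxilla and 7.43 in proximal maxilla of control number 1. On the other 28 arrays it read 6.98 to 7.80, with no array outside that narrow range. Dmp1 encodes a phosphoprotein of late osteoblasts and osteocytes that takes part in mineralization. Its values in control number 1 were 7.37, 9.07, 6.17 and 5.70 in the same order of regions, against 4.30 to 5.40 on the other 28 arrays. The proximal mandible of control number 1 was the highest array for Ibsp, Ifitm5 and Dmp1 alike.

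Mepe encodes a matrix phosphoglycoprotein of osteocytes that is tied to phosphate balance. It was below its array's filter level on 32 of 32 arrays, ranging from 5.64 to 6.86, and the highest value was that of mutant distal maxilla number 1. The groups overlapped throughout.

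Panx3 encodes a pannexin channel of osteoblasts and hypertrophic chondrocytes. In control distal mandible it read 10.29, 8.30, 8.11 and 7.02 on numbers 1 to 4, and in mutant distal mandible 5.22, 6.56, 6.28 and 5.45, so that every mutant array lay below every control array. In proximal mandible the control arrays read 12.06, 7.91, 7.20 and 8.09 and the mutant arrays 4.90, 6.59, 5.78 and 7.54, with 1 mutant array reaching into the control range. In control maxilla Panx3 read 10.24, 7.14, 5.61 and 5.54 distally and 8.51, 5.49, 6.22 and 6.26 proximally. The mutant maxilla read 4.99, 5.34, 5.37 and 5.80 distally and 5.35, 7.12, 5.63 and 5.35 proximally, and the groups overlapped at both ends. Panx3 passed the filter level on all 4 arrays of control number 1 and on 9 of the other 28 arrays. Its other probe sets were above the filter level on 1 and 0 of 32 arrays. In distal mandible the genotypes overlapped on both.

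Phex encodes a membrane endopeptidase of osteoblasts and osteocytes whose loss causes X-linked hypophosphataemia. In control distal mandible it read 7.60, 5.78, 4.79 and 4.62, in control proximal mandible 9.57, 5.93, 6.65 and 6.80, in control distal maxilla 6.81, 6.25, 6.29 and 5.65, and in control proximal maxilla 7.43, 6.46, 6.09 and 6.65. The mutant arrays read 6.30, 4.86, 5.91 and 5.33 in distal mandible, 8.03, 6.55, 5.66 and 5.36 in proximal mandible, 4.31, 5.87, 5.71 and 5.14 in distal maxilla, and 5.43, 4.98, 5.08 and 5.85 in proximal maxilla. Control number 1 was again the highest array of each control group, and the groups overlapped in every region but the proximal maxilla, where each mutant array lay below each control array. Phex was above the filter level on 6 arrays, 4 of them control number 1, so it entered the tests through that set. Its other probe set was above the filter level on 0 of 32 arrays and did not repeat these differences. There control number 1 differed from the mean of numbers 2 to 4 by -0.10, -0.01, -0.26 and -0.04 in the same order of regions. In proximal maxilla the genotypes overlapped on it. The gene is X-linked, and the sexes differ between control and mutant within numbers 1 and 2.

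Sp7 was expressed well above the filter level on every array. In control distal mandible it read 10.39, 10.02, 9.99 and 9.64, and in mutant distal mandible 9.17, 9.60, 9.27 and 9.26, with no overlap. In proximal mandible the values were 11.49, 9.04, 8.82 and 9.16 in control and 7.56, 8.33, 7.77 and 8.41 in mutant, again with no overlap. The distal maxilla read 10.70, 7.98, 9.77 and 9.59 in control and 9.87, 8.24, 8.63 and 7.68 in mutant. The proximal maxilla read 9.48, 9.71, 8.0 and 8.28 in control and 8.31, 8.06, 8.19 and 9.46 in mutant. The genotypes overlapped at both ends of the maxilla.

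Alpl encodes the tissue-nonspecific alkaline phosphatase, which removes the mineralization inhibitor pyrophosphate. In the mandible it read 10.99, 10.10, 9.74 and 9.75 distally and 11.40, 8.30, 8.26 and 8.77 proximally in control, and 10.12, 9.40, 8.95 and 9.12 distally and 7.41, 7.75, 7.71 and 8.09 proximally in mutant. The genotypes did not overlap at the proximal end. In the maxilla Alpl read 11.13, 7.91, 9.49 and 9.17 distally and 9.82, 9.34, 8.06 and 7.98 proximally in control. The mutant maxilla read 9.81, 8.36, 8.63 and 7.51 distally and 9.05, 7.59, 8.12 and 9.14 proximally, within or near the control range.

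How far control number 1 stood from its group can be given by its difference from the mean of numbers 2 to 4, as a description of 1 array with no test. For Ibsp, taken from the probe set with the higher mean, this difference was 4.88 in distal mandible, 6.04 in proximal mandible, 4.52 in distal maxilla and 0.22 in proximal maxilla. In the first 3 regions it was the largest of all 18193 genes. Ifitm5 differed by 2.92, 4.21, 3.14 and 0.32, and Dmp1 by 2.85, 3.96, 1.29 and 0.97. For Ibsp, Ifitm5 and Dmp1 the difference was thus smallest in the proximal maxilla. The other probe set of Ibsp gave 7.55, 9.53, 8.13 and 2.40, the same order with a larger value in the proximal maxilla.

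Panx3 differed by 2.48, 4.33, 4.14 and 2.52, Phex by 2.54, 3.11, 0.75 and 1.03, Alpl by 1.13, 2.96, 2.27 and 1.36, and Sp7 by 0.50, 2.48, 1.59 and 0.82. Mepe differed by 0.24, 0.24, -0.16 and -0.01. Of the 5 genes past the filter, 3 differed by at least 2 log2 units in distal mandible (0.197% of all tested genes did), 5 in proximal mandible (0.299%), 3 in distal maxilla (0.19%) and 1 in proximal maxilla (0.182%). Phex is in the 2 mandible counts and passed the filter only through control number 1. Its place in these counts is therefore a description and no support. Control number 1 was the highest array of its group for each of the 7 genes other than Mepe in all 4 regions, except for Sp7 in proximal maxilla, where number 2 was higher.

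Mutant number 1 did not share this pattern as a whole. Panx3 was lower there than the mean of mutant numbers 2 to 4 in each region, by -0.87, -1.73, -0.51 and -0.68 in the same order. Phex was higher by 2.17 in proximal mandible, and Sp7 and Alpl were higher by 1.69 and 1.64 in distal maxilla. Counts of at least 2 log2 units among the 5 genes were 0 in distal mandible (0.0219% of all tested genes), 1 in proximal mandible (0.0365%), 0 in distal maxilla (0.0292%) and 0 in proximal maxilla (0.0292%). The Cre spike-in was high in number 1 of both genotypes, whereas Ibsp, Ifitm5 and Dmp1 had their highest arrays in number 1 of the controls.

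**Figure D2:**
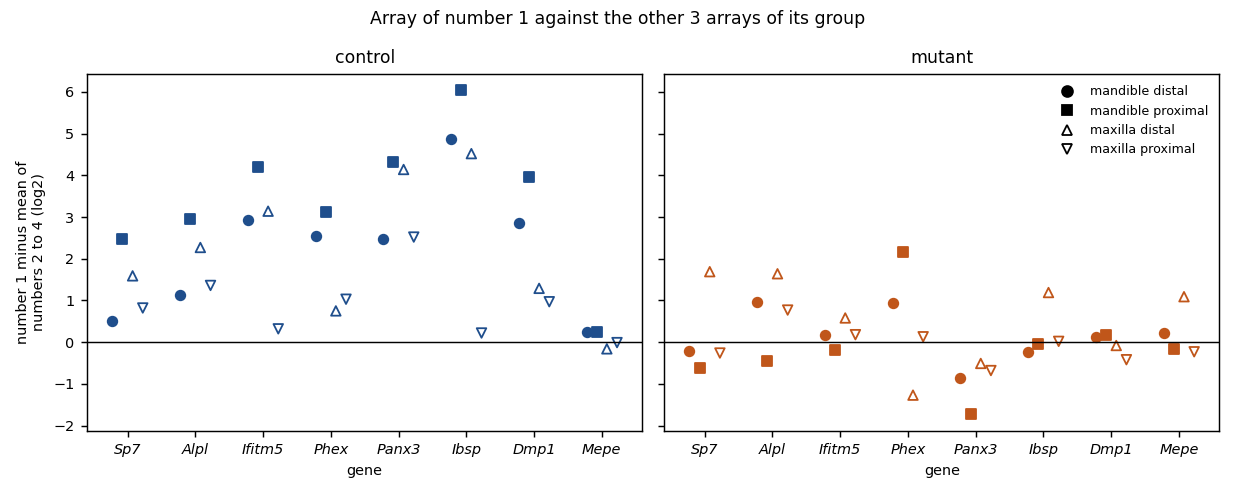
Difference in log2 expression between the array of number 1 and the mean of numbers 2 to 4 of its group (vertical axis) for the 8 genes, with 1 symbol per region, in controls (left) and mutants (right). In controls Ibsp reaches 6.04 and Mepe stays between -0.16 and 0.24, and in mutants no gene exceeds 2.17.

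Other skeletal genes moved with control number 1, and some markers of other cell types did so in part of the regions. The share of all tested genes highest on an array of number 1 was not computed, so the counts below are a description. The mean of 10 bone collagen and matrix genes, among them Col1a1, was higher in control number 1 than in numbers 2 to 4 by 0.72, 1.32, 0.83 and 0.67 in distal mandible, proximal mandible, distal maxilla and proximal maxilla, and all 10 genes were highest there in each region. In mutant number 1 the same mean was higher by 0.21, 0.25, 0.40 and 0.15, with 6, 7, 6 and 4 of the 10 genes highest, so that the sign was shared and the size was smaller. For 15 cartilage markers the differences were 0.88, 1.36, 0.98 and 1.42, against -0.25, -0.43, -0.26 and -0.63 in mutant number 1. In level, the cartilage markers averaged 9.94 to 11.06 in control number 1, 8.79 to 10.27 in control numbers 2 to 4 and 8.40 to 10.26 in the mutants. Of the 4 hypertrophic cartilage markers Col10a1 did not pass the filter. The part of cartilage in the result was not tested.

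The mean of the osteoclast markers, 7 of 9 past the filter, differed by 0.85, 0.46, 0.29 and 0.18 in control number 1 and by 0.23, 0.05, 0.13 and -0.34 in mutant number 1. In control number 1, 6, 4, 2 and 4 of the 7 were highest, so the rise was not shared by all. The gelatinase gene Mmp9, which osteoclasts and some other cells express, differed there by 3.55, 2.12, 1.90 and 1.79. Acp5 differed by 0.99, 0.72, 0 and 0.24, and Ctsk by 0.87, 0.14, 0 and 0.32. Mmp9 read 11.72, 10.38, 9.13 and 8.89 in control number 1 against 7.04 to 8.57 in control numbers 2 to 4. In mutant number 1 Mmp9 was high in the mandible as well, at 10.25 against 7.26 to 9.09 distally and 8.45 against 6.83 to 8.04 proximally. The markers Ocstamp and Atp6v0d2 did not pass. In control number 1 skeletal muscle markers differed by 1.19, 0.21, -2.53 and -1.37, so their content also varied between pieces, in both directions. Epithelial markers differed by 0.14, 0.02, 0.57 and 0.55 in mutant number 1. In control number 1 the epithelial markers differed by 0.38, -0.17, 0.81 and 0.84, with 5, 0, 7 and 7 of 8 highest. The 13 measured regulators that act upstream of osteoblasts, such as Dlx5, Msx2 and Bmp4, differed by -0.04, 0.22, 0.39 and 0.25 there, and by 0.04, 0.20, 0.56 and 0.35 in mutant number 1. The part of these cell types in the result was not tested. The genes that flank the cluster on chromosome 5 and were measured, 5 in all, differed by -0.36 to 1.09, and Dspp, a dentin gene of the cluster, by -0.17 to -0.02.

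The genotype comparison asked whether the osteoblast genes were lower or higher in mutant tissue. Averaged over the 4 regions of each genotype and number, Sp7 read 10.51, 9.19, 9.15 and 9.17 in controls 1 to 4 and 8.73, 8.56, 8.46 and 8.70 in mutants 1 to 4, with every mutant value below every control value. Alpl read 10.84, 8.91, 8.89 and 8.92 in controls and 9.10, 8.28, 8.36 and 8.47 in mutants, where mutant number 1 reached above control numbers 2 to 4. Phex read 7.85, 6.11, 5.95 and 5.93 against 6.02, 5.57, 5.59 and 5.42, where mutant number 1 reached above control numbers 3 and 4. Control numbers 2 to 4 lay within 0.2 log2 units of each other for these 3 genes.

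Panx3 read 10.28, 7.21, 6.78 and 6.73 in controls and 5.12, 6.40, 5.76 and 6.04 in mutants, with no overlap. Ifitm5 read 9.92, 7.21, 7.23 and 7.39 against 7.53, 7.37, 7.31 and 7.35, and the genotypes overlapped apart from control number 1. Ibsp, under the filter, did the same, with 8.93, 5.07, 4.94 and 5.04 against 5.21, 5.04, 4.86 and 5.02. Dmp1 read 7.08, 4.71, 4.87 and 4.86 against 4.60, 4.66, 4.65 and 4.64, where the control values of numbers 2 to 4 lay just above the mutant ones and all were below the filter level. Mepe read 5.82 to 5.92 in controls and 5.78 to 6.05 in mutants. Every mutant value lay below every control value for 2 of the 5 tested genes, Sp7 and Panx3, as for 7.14% of all genes tested.

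**Figure D3:**
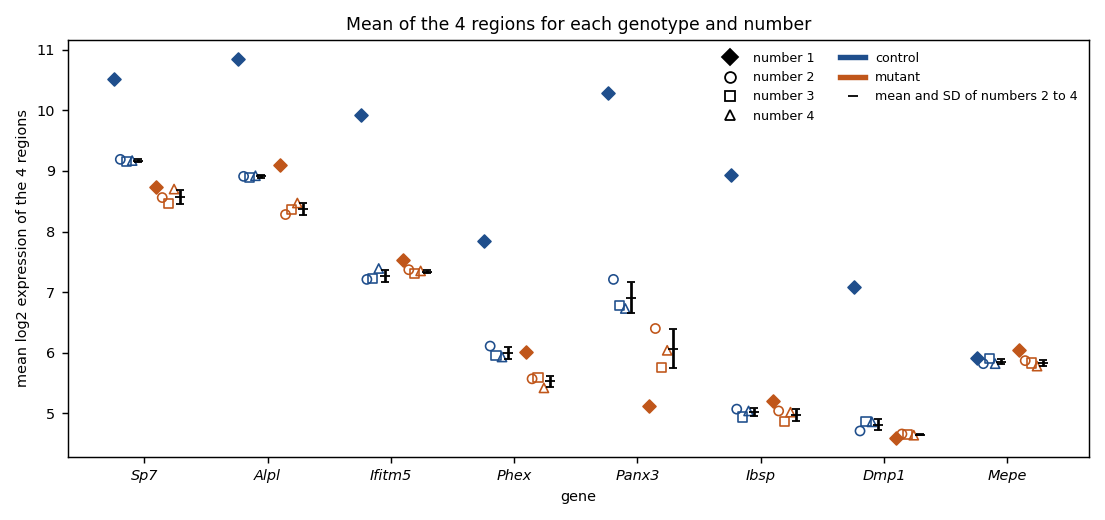
Mean log2 expression of the 4 regions (vertical axis) for each genotype and number, by gene; filled diamonds are number 1, open symbols numbers 2 to 4, and the bars give the mean and SD of numbers 2 to 4. For Sp7, Alpl, Phex and Panx3 the controls of numbers 2 to 4 lie above the mutants of numbers 2 to 4, and for Ifitm5, Ibsp and Mepe they lie together.

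With all 4 numbers, limma called 0 of the 5 genes at an adjusted p of 0.05, where 188 of 13705 genes (1.37%) were called, and 2 of the 5 (Sp7 and Panx3) had an unadjusted p below 0.05. The difference, mutant minus control, was -0.89 ± 0.29 (SE, n = 4 and 4) for Sp7 (limma adjusted p = 0.198), -0.84 ± 0.44 for Alpl (0.439), -0.81 ± 0.41 for Phex (0.425), -1.92 ± 0.75 for Panx3 (0.287) and -0.55 ± 0.56 for Ifitm5 (0.758). All 5 estimates were below 0 and their median was -0.84, against 0 for all tested genes. Fitted without the filter, the differences were -0.96 for Ibsp, -0.74 for Dmp1 and 0.02 for Mepe, with limma adjusted p of 0.768, 0.631 and 0.960.

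Without number 1 the picture was different. limma then called Alpl, Sp7 and Panx3, and with them Phex, 4 of the 5 genes, lower in mutants (554 of 13705 genes, 4.04%, were lower and 6.85% called in either direction). Alpl was lower by -0.54 ± 0.05 (SE, n = 3 and 3, limma adjusted p = 0.00373), Sp7 by -0.59 ± 0.06 (0.0045), Phex by -0.47 ± 0.07 (0.0123) and Panx3 by -0.84 ± 0.19 (0.0452), and each had all 3 mutant values below all 3 control values, as 15% of tested genes did. Ifitm5 differed by 0.07 ± 0.06 (0.509), and Ibsp, Dmp1 and Mepe, fitted without the filter, by -0.04, -0.16 and -0.02 (limma adjusted p = 0.788, 0.131 and 0.883). Phex was above the filter level on 1 of these 24 arrays and had entered the tests through control number 1, so its value is given as a description, and 3 of the 4 genes that pass the filter on these arrays were called. The estimates for Sp7, Alpl, Phex and Panx3 were smaller than with number 1, and their standard errors were smaller by more.

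Leaving out a further number kept the size of these differences and ended some of the calls. The share of all genes called in the fits that leave out further sets is not given here. The lost calls are therefore not read as particular to these genes. Without number 3 as well, which leaves 2 sets a genotype, limma called 0 of the 5 genes, with Sp7 at -0.55 (adjusted p = 0.0655), Alpl at -0.55 (0.0797), Phex at -0.53 (0.109) and Panx3 at -0.75 (0.215). Without number 2 Alpl and Panx3 were called, with Sp7 at -0.58 (0.0525) and Phex at -0.44 (0.058), and without number 4 Sp7 and Alpl were called, with Panx3 at -0.91 (0.157) and Phex at -0.45 (0.0634). Without the control set of number 3 alone, which holds the array with the Gapdh difference of 2.23, Sp7 (-0.60, limma adjusted p = 0.0243), Alpl (-0.55, 0.0197) and Phex (-0.49, 0.0423) were called and Panx3 was at -0.90 (0.103). Leaving out any other 1 set but mutant number 2 also ended the call of Panx3 (limma adjusted p = 0.0699 to 0.127). Sp7, Alpl and Phex kept theirs in each of these fits. Leaving out the controls of number 1 alone called 1 gene, Sp7 (-0.56 ± 0.07, limma adjusted p = 0.0138), and keeping all arrays with the number as a block called 0, with limma adjusted p of 0.0997 for Sp7 and 0.11 for Alpl (2.83% of all genes were called).

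By region, limma called 0 of the 5 genes in the distal mandible (1.91% of all genes were called), the proximal mandible (1.26%), the distal maxilla (0.788%) and the proximal maxilla (0.0657%). At an unadjusted p below 0.05 the counts were 1 (Panx3), 3 (Sp7, Alpl and Panx3), 0 and 0. In proximal mandible Sp7 differed by -1.61 ± 0.54 (SE, n = 4 and 4, limma adjusted p = 0.165), Alpl by -1.44 ± 0.63 (0.337) and Panx3 by -2.61 ± 0.94 (0.208). Without number 1 these were -0.84 ± 0.46 (SE, n = 3 and 3, limma adjusted p = 0.469), -0.59 ± 0.43 (0.637) and -1.09 ± 0.53 (0.391), all closer to 0, and none of the 3 had an unadjusted p below 0.05. In distal mandible Panx3 differed by -2.55 ± 0.94 (0.168) and Sp7 by -0.68 ± 0.54 (0.587). Estimates in the distal maxilla ran from -1.76 (Panx3) to -0.67 (Ifitm5), and in the proximal maxilla from -1.32 (Phex) to 0.08 (Ifitm5).

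Every mutant array lay below every control array for 2 genes in distal mandible (Sp7 and Panx3; 8.02% of all genes), 2 in proximal mandible (Sp7 and Alpl; 5.5%), 0 in distal maxilla (3.47%) and 1 in proximal maxilla (Phex; 1.08%). Without number 1 the counts were 3 (15.5%), 2 (12.5%), 0 (7.2%) and 1 (3.28%), and limma again called 0 of the 5 genes in each of the 4 regions, where 2.56%, 1.44%, 1.04% and 0.233% of all genes were called. At an unadjusted p below 0.05 the counts were then 1 (Panx3), 0, 0 and 1 (Phex). Panx3 in distal mandible differed by -1.71 ± 0.53 (SE, n = 3 and 3, limma adjusted p = 0.0851). Phex in proximal maxilla differed by -1.10 ± 0.37 (0.407). It was tested only through control number 1, and on its other probe set the genotypes overlapped there. Its place in the counts of this paragraph is therefore a description. Without the 4 maxilla arrays with turned ends, the count in the maxilla was also 0 at both ends (1.86% and 0.0073% of all genes), with Sp7 at -1.11 ± 0.52 distally (0.317) and -0.40 ± 0.52 proximally.

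The 4 interaction tests asked whether the genotype effect differed between jaws or between ends. limma called 0 of the 5 genes in each of them, at 0.102% of all genes for jaw at the distal end, 0.0073% for jaw at the proximal end, 0.0219% for end in the mandible and 0.0584% for end in the maxilla, and 0 of the 5 had an unadjusted p below 0.05 in any of them. The largest estimate was that of Panx3 for jaw at the proximal end, -1.85 ± 1.34, with a 95% interval from -4.6 to 0.89. Without number 1 the counts were again 0 of 5 in each, also at an unadjusted p below 0.05, at 0.0949%, 0.0219%, 0.0219% and 0% of all genes in the same order, and Panx3 for jaw at the proximal end was at -1.14 ± 0.74 (limma adjusted p = 1.0). Without the 4 turned maxilla arrays the count was 0 of 5 for jaw at either end (0.124% and 0.0073% of all genes).

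Along the mandible, Sp7 and Alpl were higher at the distal end in each of the 4 mutant sets. The distal minus proximal difference was 1.31 ± 0.54 (SE, n = 4 and 4) for Sp7 and 1.66 ± 0.63 for Alpl in the mutant mandible, with limma adjusted p of 0.209 and 0.154, so that 0 of the 5 genes were called (5.03% of all genes) and 2 had an unadjusted p below 0.05. Equal numbers deviated together in this comparison, with correlations of 0.67, 0.19, 0.28 and 0.32, and with the number as a block the call of Alpl was made (limma adjusted p = 0.0333), while that of Sp7 was not (0.138; 6.64% of all genes). Fitted on the mutant mandible arrays alone, both were called (limma adjusted p = 0.00275 for Alpl and 0.00288 for Sp7). The share of all genes called in that fit is not given here. Without number 1 the differences were 1.21 ± 0.46 for Sp7 and 1.31 ± 0.43 for Alpl (SE, n = 3 and 3, limma adjusted p = 0.158 and 0.0895), with 0 of the 5 genes called (5.03% of all genes) and 2 at an unadjusted p below 0.05.

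In the control mandible number 1 went against the others. Alpl was higher distally in numbers 2 to 4 and higher proximally in number 1, and the same held for Sp7. The control differences were 0.38 ± 0.54 for Sp7 and 0.96 ± 0.63 for Alpl (limma adjusted p = 0.856 and 0.512), with 0 of the 5 genes called (4.84% of all genes). Phex went the other way, lower distally by -1.54 ± 0.65 (0.217). Without number 1 Phex was at -1.40 ± 0.37 (SE, n = 3 and 3, limma adjusted p = 0.0288; 6.84% of all genes were called), and Alpl at 1.42 ± 0.43 (0.0517). The Phex value is a description, since the gene was tested through the set left out and was above the filter level on 1 of the remaining arrays. Leaving out only the distal control array of number 1 put Phex at -2.17 (limma adjusted p = 0.0436). That fit keeps the high proximal control array of number 1, at 9.57, which widens the difference, so it adds no support.

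Between the ends of the maxilla no direction can be given. The distal minus proximal difference of Sp7 was 1.22, -1.72, 1.77 and 1.31 in controls 1 to 4 and 1.56, 0.18, 0.44 and -1.78 in mutants 1 to 4. Alpl gave 1.30, -1.43, 1.43 and 1.19 and then 0.76, 0.77, 0.51 and -1.63, and Msx2, a homeobox gene of distal jaw mesenchyme, gave 1.55, -2.89, 2.74 and 2.43 and then 1.25, 3.43, 1.35 and -3.47. Control number 2 and mutant number 4 thus had the sign turned in all 3 genes, and the other 6 sets had Sp7, Alpl and Msx2 higher in the array labelled distal. limma called 0 of the 5 genes in either genotype (0% of all genes in both), with 0 at an unadjusted p below 0.05, with and without number 1, and no test is given without the turned arrays, since they were picked by this direction.

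**Figure D4:**
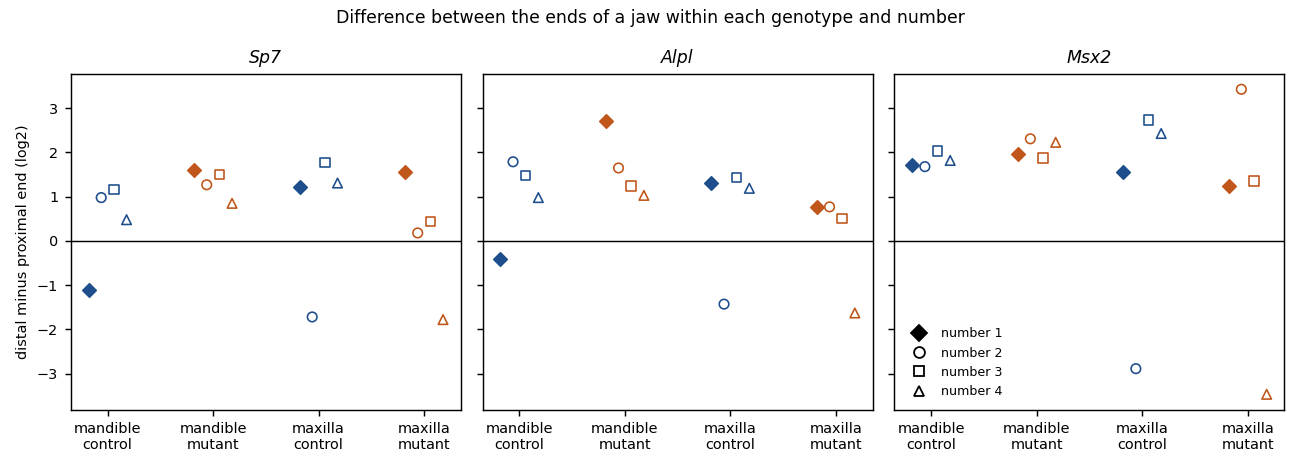
Distal minus proximal log2 expression (vertical axis) within each genotype and number for Sp7, Alpl and Msx2, in the mandible and the maxilla; filled diamonds are number 1. In the maxilla control number 2 and mutant number 4 lie below 0 in all 3 panels, and in the mandible only control number 1 lies below 0, for Sp7 and Alpl.

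Between the jaws, limma called 0 of the 5 genes in each of the 4 comparisons of mandible with maxilla, with 1.47% of all genes called distally and 5.4% proximally in control, and 13.7% and 3.06% in mutant. At an unadjusted p below 0.05 only Panx3 in proximal control tissue was counted, higher in the mandible by 2.19 ± 0.94 (SE, n = 4 and 4, limma adjusted p = 0.239). Without number 1 that difference was 1.74 ± 0.53 (0.0565), and Ifitm5 was called in proximal control tissue at 0.37 ± 0.11 (SE, n = 3 and 3, limma adjusted p = 0.0465; 6.45% of all genes), within the narrow range of its values near 7. In the other 3 comparisons of the jaws 0 of the 5 genes were called without number 1 (2.56% of all genes distally in control, 15.6% distally and 4.58% proximally in mutant), while 3 (Alpl, Phex and Panx3), 2 (Sp7 and Alpl) and 1 (Ifitm5) had an unadjusted p below 0.05. Phex is counted there as a description, since it was tested through the set left out. Without the 4 maxilla arrays with turned ends, the counts stayed 0 (1.34% and 5.31% of all genes in control, 12.2% and 3% in mutant).

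The regulators that act upstream of these genes, 13 genes with a probe set, were mostly alike in the genotypes when averaged over the regions. For the average over the regions limma called 1 of 13 lower and 0 higher, with a median of -0.02. Of all tested genes 1.37% were called with all numbers, and 6.85% without number 1, of which 4.04% were lower. The regulator called was Bmp2, a bone morphogenetic protein that induces osteoblasts, at -0.72 ± 0.11 (SE, n = 4 and 4, limma adjusted p = 0.0265). Without number 1, Bmp2 (-0.57 ± 0.06, 0.00388) and the related ligand gene Bmp4 (-0.23 ± 0.05, 0.0403) were called. Dlx5, a homeobox gene of the lower jaw and of osteoblast precursors, differed by -0.02 ± 0.08 (0.942) with all numbers. Single regions could differ. In proximal mandible the regulator Dlx3 read 9.44 to 9.69 in control and 10.35 to 11.25 in mutant. In distal mandible Msx2 read 10.29 to 11.29 in control and 11.34 to 11.91 in mutant. Both genes overlapped between the genotypes in their other regions.

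Bone collagens and other matrix genes gave 10 tested genes of 13 listed. For the average over the regions 1.37% of all tested genes were called with all numbers, and without number 1 4.04% were called lower. With all numbers limma called 0 of 10, with a median of -0.34 and 10 of 10 below 0. Without number 1 it called 4 of 10 lower and 0 higher, with a median of -0.28: the small leucine-rich proteoglycan gene Omd (-1.0 ± 0.06, limma adjusted p = 0.00118), the type I collagen genes Col1a1 (-0.50 ± 0.05, 0.0032) and Col1a2 (-0.20 ± 0.04, 0.0452), and Col5a1 (-0.32 ± 0.05, 0.0193). Of 5 mineralization genes tested of 8 listed, 0 were called with all numbers and 1 lower without number 1, the sphingomyelinase gene Smpd3 (-0.31 ± 0.06, 0.0306). For the average over the regions, the cartilage markers, 15 tested, and osteoclast markers, 7 tested, gave 0 calls with and without number 1, and Col2a1, the main cartilage collagen, differed by -0.25 ± 0.21 (0.696) and by 0.00 ± 0.18 (0.993). By region, the osteoclast protease gene Ctsk was lower in mutant proximal mandible, at -0.81 ± 0.16 (SE, n = 4 and 4, limma adjusted p = 0.00935) and without number 1 at -0.84 ± 0.13 (0.00251).

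Markers of other cell types moved with genotype beside Sp7, Alpl and Panx3, which were called lower on average only in fits without control number 1. The share of all tested genes called in either direction was 1.37% with all numbers and 6.85% without number 1. Of 10 macrophage markers limma called 4 higher in mutants and 0 lower for the average over the regions with all numbers, with a median of 0.63, and 8 higher without number 1, with a median of 0.81. The macrophage receptor gene Csf1r differed by 0.65 ± 0.16 (SE, n = 4 and 4, limma adjusted p = 0.0999), and without number 1 by 0.87 ± 0.06 (0.0015). The mean of the macrophage markers ran from 7.63 to 8.62 over the control arrays and from 7.71 to 9.23 over the mutant arrays.

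Of 5 tendon markers limma called 0 with all numbers, with a median of -0.57, and without number 1 called 2 lower, the tendon transcription factor gene Scx (-0.68 ± 0.10, limma adjusted p = 0.0148) and the keratocan gene Kera (-1.56 ± 0.34, 0.0419), and 1 higher, Egr1. In the mandible the tendon marker mean was 9.20 to 9.90 on the control arrays and 8.67 to 8.92 on the mutant arrays, with no overlap. In the maxilla it was 8.67 to 9.39 and 7.86 to 8.79, with overlap. Of 8 neuron markers 1 was lower with all numbers and 2 without number 1, and of 4 glial markers 0 and 2. Of all tested genes 1.37% were called with all numbers, and 6.85% without number 1, of which 4.04% were lower. The part of these cell types in the values of the osteoblast genes was not tested.

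Among themselves, Sp7 and Alpl followed each other over all arrays, with a Pearson r of 0.94 over the 32 arrays and 0.95 over the 24 without number 1, given as a description since arrays share regions and sets. Ibsp and Ifitm5 correlated at 0.98 over 32 arrays and 0.13 over 24, Ibsp and Dmp1 at 0.90 and 0.27, and Sp7 and Ibsp at 0.64 and -0.13. Without the 8 arrays of number 1, Sp7 and Alpl thus kept their correlation. On those 24 arrays all values of Ibsp and Dmp1 were below the filter level, and Ifitm5 stayed within 6.98 to 7.80. The low r of Ibsp with Ifitm5, Dmp1 and Sp7 there cannot show whether these genes follow each other. Mepe correlated weakly with Sp7 in both, at 0.38 and 0.31. The mean of the 5 tested genes, each scaled over the arrays, was most like Trpv4 (r = 0.91), Fkbp11 (0.89), Clec11a (0.89), Omd (0.88), Antxr1 (0.88), Sgms2 (0.88), Col1a1 (0.87) and Fkbp7 (0.87) over 32 arrays. Over the 24 arrays without number 1 the 8 most alike were Ripk3 (0.85), Gxylt2 (0.84), Tesk2 (0.84), Foxn3 (0.83), Letm1 (0.82), Otor (0.81), Apip (0.81) and S100a4 (0.81), and the lists shared 0 genes.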

How the data were processed

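The deposited table gives a log2 value for each probe set on each array, which the authors made with RMA per the submitters' processing notes (version not given in the sources used here). Per the labels' protocols, 5 µg of total RNA went into biotin-labelled cRNA. RMA draws arrays towards a common distribution and compresses differences at low signal.

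The platform annotation gave 1 gene symbol to 34945 of 45101 probe sets and several to 932, which named no gene. The probe set with the highest mean among those past the low-signal filter stood for its gene. For genes under the filter the same choice was made without it.

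Differences were tested with limma 3.58.1 in R 4.3.3, on 8 group means (24 residual degrees of freedom) or, for the average genotype effect, on the 4 regional arrays of a genotype and number averaged (6 degrees of freedom). eBayes moderated the p-values, which were adjusted by the Benjamini-Hochberg method over all 13705 genes of a comparison and called at 0.05. The fits were tested on simulated data. The members and gene lists were chosen with earlier results of these data known. Named genes were the 9 members, listed genes past the threshold (up to 4 per list and comparison, by adjusted p), a fixed set of bone, cartilage and jaw genes, and the 8 genes most like the members. Dlx3, Msx2 and Mmp9 were picked after their values were seen.

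Equal numbers deviated together, with every correlation over 0.1, for the average genotype effect (0.44, 0.2, 0.4 and 0.23), the ends of the mutant mandible and the jaws at the proximal end of the mutant. There the replicate block is taken as a pairing, which rests on the arrays and on no label.

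Alternatives covered the scaling, the filter, the choice of probe set, an intensity trend, the number as a block or covariate, embryo sets as a random block, the arrays fitted and leaving out arrays. Motifs were searched in RefSeq promoter sequences (GRCm38.p6); the files name no genome build, so no other coordinates are given.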

Additional observations from a re-analysis of the deposited data

Results flagged for a closer look

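Among 64 groups of 4 arrays (8 genes in 8 groups), 14 had an array whose gap to the nearest other exceeded Dixon's critical value, and 11 of these were control number 1, high. Chance flags about 5% of groups, and the genes of 1 array are not independent. The share of all tested genes flagged in this way was not computed, so these counts are a description. The arrays of control number 1 stood apart for Ibsp in distal mandible (9.84), proximal mandible (11.11) and distal maxilla (9.68), for Ifitm5 in the same 3 regions (10.17, 11.70 and 10.39), for Dmp1 in the same 3 (7.37, 9.07 and 6.17), and for Sp7 (11.49) and Alpl (11.40) in proximal mandible. The other 3 were mutant arrays: distal maxilla number 1 for Ibsp (6.10) and Mepe (6.86), and proximal maxilla number 2 for Panx3 (7.12).

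Of 16 genotype means over the 4 regions, 7 had a set that stood apart, and each was control number 1: Sp7 at 10.51, Alpl at 10.84, Ibsp at 8.93, Ifitm5 at 9.92, Phex at 7.85, Panx3 at 10.28 and Dmp1 at 7.08. Mepe was the only measured gene without such a set. Phex passed the filter only through control number 1, so its place in this count is no support. The share of all tested genes with such a set was not computed.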

How the results depend on the processing

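Of 447 alternative counts of called genes over 17 comparisons, 438 were within 1.5 times the reported count and 9 were not; of 2539 differences of single genes, 0 changed sign past the threshold, 14 lost a call and 14 gained one. For the average genotype effect the count was 0 with all arrays, 4 without number 1 and 1 without the controls of number 1. Without number 1, leaving out a further number gave 0 to 4 called genes (2 without number 2, 0 without number 3, 2 without number 4), and Panx3 alone was lost with the probe set of largest variance (adjusted p = 0.0735). Between the ends of the control mandible, leaving out arrays gave 0 to 1 (Phex). Between the ends of the mutant mandible the count was 1 (Alpl) with the replicate block, 1 with number 1 as a covariate, 1 with the control set of number 1 left out (chosen after seeing the data) and 2 with only the groups compared. Between the jaws at the proximal end in control, leaving out number 1 gave 1 (Ifitm5). Under the filter, Dmp1 passed between the ends of the control mandible without number 1, at -0.58 (adjusted p = 0.0278), with all values below the filter level. The replicate block changed no other call of these genes. The cause of these changes was not tested, and the share of all genes called is not given for every alternative. Signal near the level of the filter limits Phex and Panx3, and 3 arrays a group limit every result without number 1.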
